A study of Homo sapiens with 9 samples.

Results

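The carbonic anhydrase genes CA2, CA9, CA12 and CA13 and the bicarbonate transporter genes SLC4A2 and SLC4A7 were followed across an RNA-seq experiment in 786-O cells. These 6 genes were chosen by name from 38021 genes, with the fold changes of the comparisons below already known, so their values are given as a description and without p-values. Each gene had a single row in the deposited count table.

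786-O is an established line from a clear cell renal cell carcinoma (ccRCC) that lacks functional VHL, so HIF2α (EPAS1) is stable in normal oxygen. Lentivirus made from pLKO.1 brought in 1 hairpin per group, against ARNT (shARNT), against BMAL1 (shBMAL1) or a control hairpin (shControl), and puromycin was kept on all groups (2.5 µg/mL during the 1 week of selection and 1.25 µg/mL afterwards). All cells grew in DMEM with fetal bovine serum, and none of the groups was left uninfected. The question was how much ARNT and BMAL1 each contribute to HIF2α-driven transcription, and there were 3 libraries per group, 9 in all, labelled as biological replicates of 1 cell line, so the errors cover the spread between these libraries only.

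Carbonic anhydrases interconvert CO2 and water with bicarbonate and a proton. Tumor cells with high glycolysis export acid, and they buffer their cytosol by hydrating CO2 at the outer face of the membrane and carrying bicarbonate back in. CA9 is a classic HIF target and a diagnostic marker of ccRCC, ARNT is the classic partner of HIF1α and HIF2α at the hypoxia response element, and BMAL1 is an ARNT paralog best known as the partner of CLOCK at E-boxes that can also pair with HIF alpha subunits.

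Library totals ran from 33793045 to 35444735 estimated counts. ARNT was at 1225 normalised counts under its own hairpin against 2352 under the control hairpin, a log2 difference of -0.94 ± 0.074 (SE, n = 3 per group). BMAL1, listed as ARNTL, was at 326 under its own hairpin against 761, a change of -1.23 ± 0.11. Each target was also lower in the other knockdown, ARNT by -0.23 ± 0.080 in shBMAL1 and ARNTL by -0.26 ± 0.098 in shARNT. Both of these calls were lost in 2 of 12 alternatives, that of ARNT without shControl replicate 2 (-0.16) or shBMAL1 replicate 2 and that of ARNTL without shControl replicate 2 or shARNT replicate 3 (-0.19). These are mRNA levels, and by immunoblot the paper saw slightly more of each protein when the other was depleted. Of the HIF subunits, EPAS1 fell by 0.23 ± 0.059 in shARNT and was at -0.06 ± 0.067 in shBMAL1, where it was not called, and HIF1A rose by 0.42 ± 0.058 and 0.61 ± 0.067. All 6 kidney epithelial and renal carcinoma markers (among them PAX8, KRT8 and VIM) had at least 50 normalised counts in every library. Their sum lay between 137592 and 140719 counts per shControl library, 129927 and 132461 per shARNT library and 112870 and 125413 per shBMAL1 library, and PAX8 averaged 10004, 10031 and 7156. The 3 proximal tubule markers summed to between 69.8 and 104, 82.8 and 94.4, and 111 and 162 in these groups, with LRP2 at or near 0. Of the markers of other cells, CD3E, HBB and CDH5 were at 0 throughout. The 3 fibroblast markers summed to between 204 and 268 counts per shControl library, 181 and 198 per shARNT library and 314 and 363 per shBMAL1 library. The higher sum in shBMAL1 lay in LUM (means of 90.9, 75.4 and 188). COL1A1 averaged 149, 112 and 142, so both genes averaged lower in shARNT than in shControl, and DCN was at or near 0. The share of counts from mitochondrial genes stood at 6.21 ± 0.85% (SD) for shControl, 8.06 ± 0.60% for shARNT and 9.33 ± 0.54% for shBMAL1. Whether the marker or mitochondrial values had a part in the results below was not tested. In bulk RNA, fewer cells expressing a gene and less RNA of it per cell cannot be told apart.

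Upstream sequence is shown for 3 of the genes because the factors depleted here bind short DNA motifs. Sequences are the plus or minus strand as the gene reads, 5′ to 3′, from RefSeq promoter windows (GRCh38.p14) that matched GRCh37 exactly at 1 place (8 windows of 4 genes, with none for CA2 or CA13), and all coordinates are GRCh37. The motifs searched, on both strands, were the hypoxia response element cores ACGTG and GCGTG and the E-box CACGTG, which holds ACGTG on both strands. Over the 250 bases upstream of the start, 18.5% of 35116 RefSeq windows held ACGTG, 32.2% held GCGTG and 6.34% held CACGTG.

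The CA9 stretch is the last 30 bases before the start (chr9:35673895-35673924, plus strand). Capitals mark CACGT, which is ACGTG on the other strand, with its first base at position -18 from the start. An annotated exon of ARHGEF39, on the opposite strand, also covers these bases.
CA9: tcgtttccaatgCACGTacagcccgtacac

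The CA12 stretch is the 150 bases before the start (chr15:63674046-63674195, minus strand), with no annotated exon in it. It held none of the motifs, and the only match in the 250 bases was a GCGTG whose first base lay at -234.
CA12: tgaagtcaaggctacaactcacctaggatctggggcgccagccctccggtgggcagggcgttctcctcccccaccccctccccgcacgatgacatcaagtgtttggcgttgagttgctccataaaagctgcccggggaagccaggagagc

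SLC4A2 had 4 RefSeq windows. The stretch shown is from the third (chr7:150759508-150759570, plus strand), with no annotated exon in it, and capitals mark E-boxes at -114 and -81 from that start.
SLC4A2: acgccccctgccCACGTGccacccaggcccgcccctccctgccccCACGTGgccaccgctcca

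The fourth window of SLC4A2 overlaps the third and held 3 E-boxes, those 2 among them, while the first and second windows held no ACGTG or CACGTG. All 4 windows of SLC4A2 held the other core, GCGTG, at 2, 1, 2 and 1 places in order. Of the 2 windows of SLC4A7, the first held GCGTG at 2 places and the second none of the motifs. These matches describe letters in a window, and binding was not measured.

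Normalised counts are counts divided by library size factors, fold changes are on the log2 scale and come from DESeq2 with their standard error (SE), and a gene was called at an adjusted p under 0.1 (Benjamini-Hochberg over all genes tested). In shARNT against shControl, CA9, CA12 and SLC4A7 were called lower and CA2 and SLC4A2 higher, where 19.0% of the 15164 genes tested were called lower and 16.5% higher. In shBMAL1 against shControl, CA12 and SLC4A7 were called lower and CA2 and CA9 higher, beside 19.4% lower and 17.4% higher of 19036 genes. Between the knockdowns, CA2, SLC4A2 and SLC4A7 were called lower in shBMAL1 and CA9, CA12 and CA13 higher, beside 18.0% and 17.3% of 18181 genes. All 6 genes passed the filter on low counts. Since these contrasts were in view when the genes were picked, nothing is read from the number called. CA2 and CA9 kept their calls in all 3 comparisons under every alternative and without any 1 library.

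CA9 (chromosome 9, 35673925 to 35681156, plus strand), the membrane-bound enzyme with its active site outside the cell, was the member with the widest range. Its normalised counts were 146, 129 and 108 in the shControl libraries, 18.5, 17.7 and 16.9 in shARNT, and 290, 261 and 245 in shBMAL1. All shARNT libraries lay far below shControl and all shBMAL1 libraries above it, with no overlap. The log2 fold change was -2.85 ± 0.31 in shARNT against shControl (7.20-fold lower), 1.05 ± 0.17 in shBMAL1 against shControl (2.07-fold higher), and 3.90 ± 0.26 in shBMAL1 against shARNT (15.0-fold higher). ARHGEF39 overlaps CA9 on the opposite strand and had more reads than CA9 (mean counts of 773, 742 and 906 for shControl, shARNT and shBMAL1). The libraries were stranded, but no source gives the strand option used in counting, so reads of the pair may not be fully separated. ARHGEF39 itself differed by -0.06 ± 0.091 in shARNT and 0.23 ± 0.094 in shBMAL1, against -2.85 and 1.05 for CA9.

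CA12 (chromosome 15, 63613577 to 63674045, minus strand) is the other membrane-bound enzyme that faces outward, and it was among the genes with the most reads, with more counts in shControl than 99.8% of the 22537 genes with any count. The libraries gave 53614, 53312 and 48283 normalised counts in shControl, 37853, 40473 and 34651 in shARNT, and 48935, 44297 and 40662 in shBMAL1. Every shARNT library was below every shControl library, whereas the highest shBMAL1 library was above the lowest shControl library. CA12 fell in both knockdowns, by 0.46 ± 0.061 on the log2 scale in shARNT and by 0.22 ± 0.075 in shBMAL1. Against shARNT, shBMAL1 was higher by 0.24 ± 0.078. The fall in shBMAL1 was called with every library in place and lost its call without shBMAL1 replicate 3, where the value was -0.15. The difference between the knockdowns lost its call without shARNT replicate 3, at 0.18. All 9 of its deposited counts were fractional, unlike those of the other 5 genes, and how the fractions arose is not given in the sources used here.

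Both CA9 and CA12 were lower in shARNT, while in shBMAL1 CA9 was higher and CA12 lower. The 2 knockdowns share the shControl libraries. Within single libraries, CA12 counts per exon kilobase were 93.4 ± 9.05 times those of CA9 with the control hairpin, 486 ± 31.9 times with shARNT and 38.4 ± 0.43 times with shBMAL1 (SD, n = 3 each), and these ratios did not overlap between groups. The size of these ratios depends on the length used. Per coding kilobase in shControl, CA12 was at 48716 ± 2820 counts and CA9 at 92.7 ± 13.7.

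Among the cytosolic enzymes, CA2 was higher in both knockdowns and CA13 was called in neither. CA2 (chromosome 8, 86376197 to 86393722, plus strand) is the fast and widely expressed cytosolic isoform. Its normalised counts were 5033, 5291 and 4352 in shControl, 9546, 9896 and 9433 in shARNT, and 8967, 7769 and 6595 in shBMAL1. Both knockdowns lay above shControl in every library, and every shARNT library lay above every shBMAL1 library. CA2 rose by 0.98 ± 0.066 on the log2 scale in shARNT (1.97-fold) and by 0.67 ± 0.10 in shBMAL1 (1.59-fold), and shBMAL1 was lower than shARNT by -0.31 ± 0.090, a difference that was -0.20 without shBMAL1 replicate 3. CA3-AS1, an antisense RNA that overlaps CA2 on the opposite strand, averaged 53.6, 61.4 and 103 counts for shControl, shARNT and shBMAL1, few beside those of CA2.

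CA13 (chromosome 8, 86132816 to 86196302, plus strand), another cytosolic isoform, had the smallest differences relative to its error. The libraries gave 277, 249 and 310 normalised counts in shControl, 213, 244 and 236 in shARNT, and 326, 294 and 256 in shBMAL1. The shARNT libraries were below all others, and shControl and shBMAL1 overlapped. The log2 fold changes were -0.27 ± 0.15 in shARNT and 0.06 ± 0.15 in shBMAL1, neither of which was called. The latter turned to -0.012 without shControl replicate 2 and to -0.022 without shBMAL1 replicate 1. In shBMAL1 against shARNT the value was 0.34 ± 0.15, a call that was lost in 5 of 6 fits that left out 1 library, where the values ran from 0.25 to 0.42 and the call stayed only without shBMAL1 replicate 3.

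Of the bicarbonate transporters, SLC4A2 rose in shARNT and SLC4A7 fell in shBMAL1. SLC4A2 (chromosome 7, 150754297 to 150773613, plus strand) encodes AE2, which exchanges chloride for bicarbonate across the plasma membrane. Its normalised counts were 24686, 23713 and 25821 in shControl, 29919, 30081 and 28982 in shARNT, and 28636, 25446 and 26071 in shBMAL1. The shARNT libraries were above all others, while shBMAL1 and shControl overlapped. SLC4A2 rose by 0.26 ± 0.048 on the log2 scale in shARNT (1.20-fold), and the value in shBMAL1 was 0.11 ± 0.066, which was not called and ran from 0.056 (without shBMAL1 replicate 1) to 0.15 when 1 library was left out. The difference between the knockdowns, -0.15 ± 0.063, lost its call without shARNT replicate 1 (-0.15), shARNT replicate 2 (-0.14), shBMAL1 replicate 2 (-0.12) or shBMAL1 replicate 3 (-0.14). CDK5 overlaps SLC4A2 on the opposite strand and had 1985, 2344 and 1404 counts in the respective groups, with changes of 0.24 ± 0.065 in shARNT and -0.50 ± 0.085 in shBMAL1. The count of CDK5 was far below that of SLC4A2 in each group.

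SLC4A7 (chromosome 3, 27414212 to 27525911, minus strand) encodes NBCn1, a sodium bicarbonate cotransporter that loads the cell with base. It had 2687, 2528 and 2536 normalised counts in shControl, 2239, 2434 and 2370 in shARNT, and 1707, 2153 and 1955 in shBMAL1. The groups were separate, with shControl highest and shBMAL1 lowest. SLC4A7 fell by 0.42 ± 0.088 on the log2 scale in shBMAL1 (1.34-fold lower) and was lower than in shARNT by -0.28 ± 0.089. The value in shARNT was -0.14 ± 0.063, and its call was lost in all 6 fits that left out 1 library, with values from -0.16 to -0.10. SLC4A7 was the only member with its lowest level in shBMAL1. Per exon kilobase, SLC4A2 exceeded SLC4A7 12.2 ± 0.67 times with the control hairpin, 16.1 ± 0.79 times with shARNT and 17.8 ± 3.23 times with shBMAL1.

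**Figure D1:**
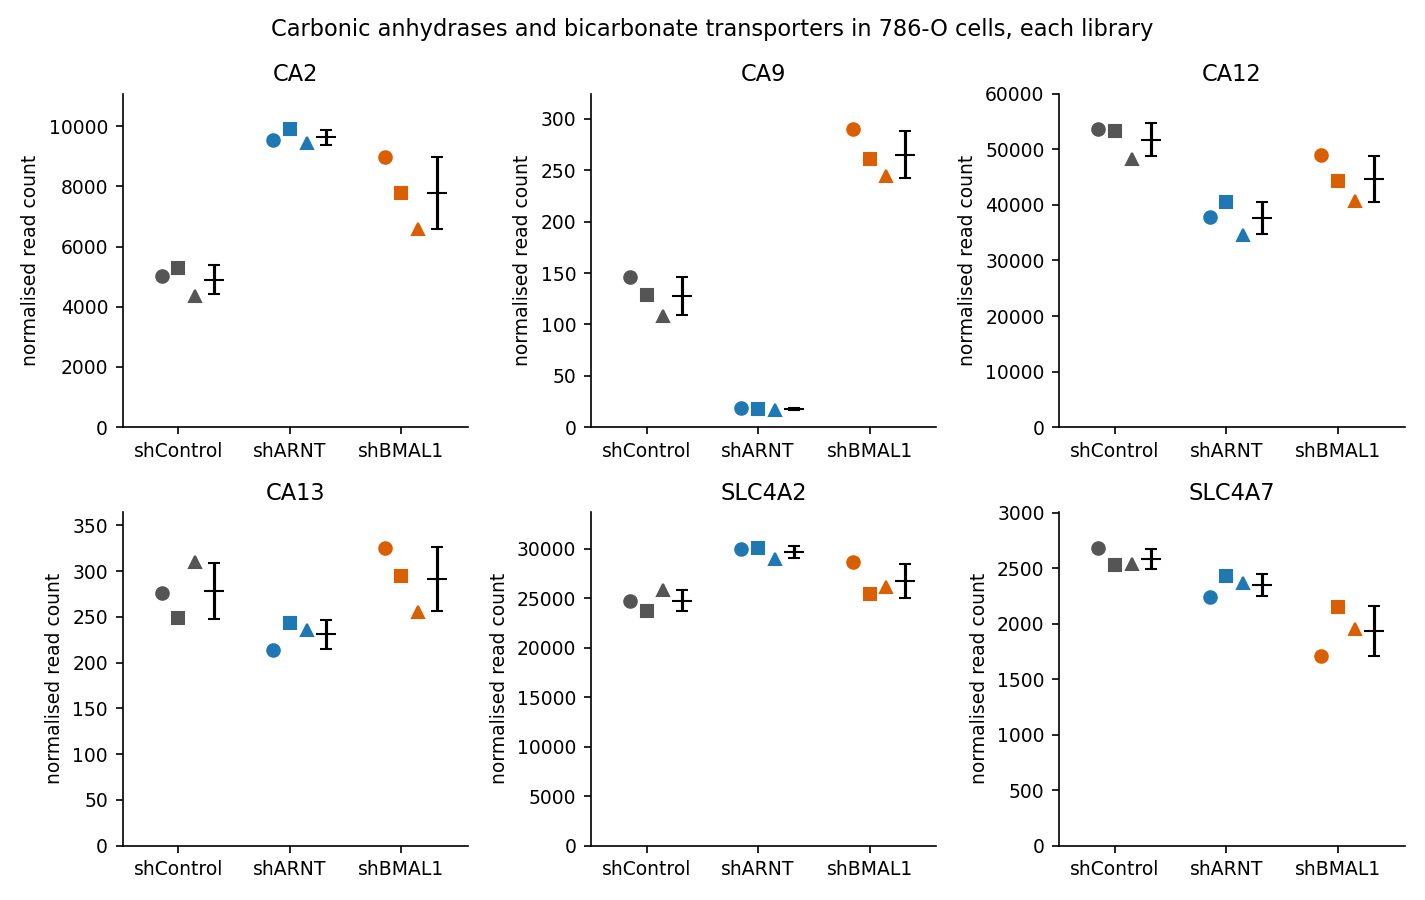
Normalised read counts (vertical axis, linear, from 0) of the 6 genes in each library of shControl, shARNT and shBMAL1. Circles, squares and triangles are replicates 1, 2 and 3, and black bars are the mean ± SD (n = 3). CA9 falls to between 16.9 and 18.5 in shARNT and reaches 245 to 290 in shBMAL1, while CA2 is above shControl in both knockdowns and CA12 is lowest in shARNT.

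**Figure D2:**
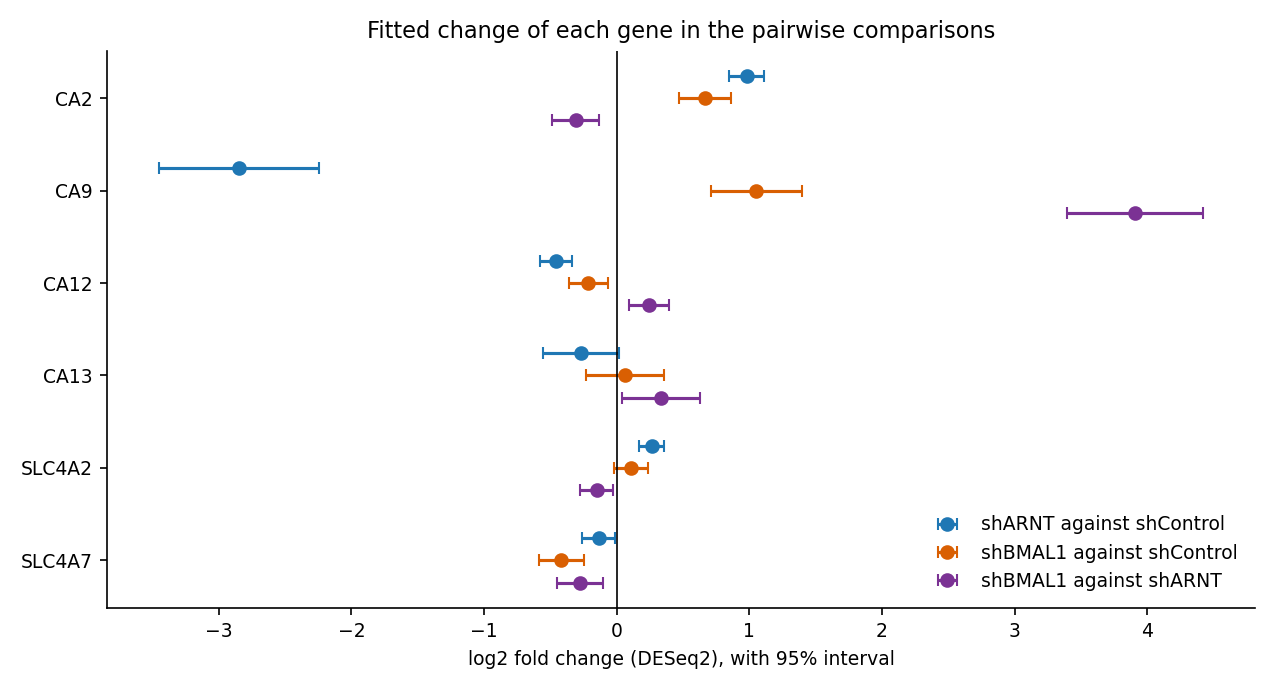
DESeq2 log2 fold change (horizontal axis) of each gene (vertical axis) with its 95% confidence interval, for shARNT against shControl (blue), shBMAL1 against shControl (orange) and shBMAL1 against shARNT (purple). CA9 lies at -2.85 and 1.05 on opposite sides of 0 in the 2 knockdowns, CA2 lies at 0.98 and 0.67, and the other 4 genes lie within 0.5 of 0.

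Levels of different genes were compared per kilobase of exon. In shControl the order was CA12 at 7393 ± 428 normalised counts per exon kilobase, SLC4A2 at 3268 ± 139, CA2 at 2437 ± 242, SLC4A7 at 269 ± 9.28, CA9 at 79.9 ± 11.8 and CA13 at 49.8 ± 5.5 (SD, n = 3), and no neighbours in this order overlapped. In shARNT, CA2 (4796 ± 120) passed SLC4A2 (3918 ± 78.4) and came close to CA12 (5381 ± 417), and CA9 (11.1 ± 0.51) dropped below CA13 (41.2 ± 2.79). In shBMAL1, CA12 led at 6378 ± 593, CA2 (3875 ± 591) and SLC4A2 (3529 ± 223) overlapped, CA9 reached 166 ± 14.3 and overlapped SLC4A7 (202 ± 23.2), and CA13 was at 52.1 ± 6.27. The distances between genes and the place of CA9 depend on the length used. Per kilobase of coding sequence, CA2 in shARNT was at 11310 ± 283 against 35460 ± 2746 for CA12. In shBMAL1 on that length, CA2 (7750 to 10538) and SLC4A2 (6775 to 7624) no longer overlapped. Nor did CA9 (178 to 211) and SLC4A7 (435 to 549). On coding length CA9 was below CA13 in every group, at 92.7 ± 13.7 against 355 ± 39.1 in shControl. This is because nearly all annotated exon bases of CA9 are coding and few of CA13 are. On either length CA9 stood below CA12, CA2 and both transporters in shControl, and 49.9% of the genes with any count had fewer counts than it there.

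The makeup of the carbonic anhydrase transcripts was taken over all 15 carbonic anhydrase genes in the table, as shares of their summed counts per exon kilobase. CA12 and CA2 together gave 97.8% of the sum for shControl, 98.4% for shARNT and 96.5% for shBMAL1. CA12 held 73.7%, 72.8% and 74.3% in the shControl libraries, 52.3%, 53.1% and 50.5% in shARNT, and 59.0%, 59.8% and 61.5% in shBMAL1. CA2 held 24.1%, 25.2% and 23.3% in shControl, 46.0%, 45.2% and 47.9% in shARNT, and 37.7%, 36.6% and 34.8% in shBMAL1. The share of the cytosolic CA2 thus stood higher and that of the membrane-bound CA12 lower in all 6 knockdown libraries, most so in shARNT. CA9 held 0.79 ± 0.077%, 0.11 ± 0.0053% and 1.57 ± 0.050% in the same order of groups, and CA13 held 0.50 ± 0.089%, 0.40 ± 0.030% and 0.49 ± 0.0066%. The summed level itself overlapped between groups, at 10053 ± 663, 10347 ± 545 and 10625 ± 1206 counts per exon kilobase. Per coding kilobase the shares of CA12 were 88.2%, 74.7% and 80.6% and those of CA2 10.4%, 23.9% and 17.5%, in the same order of groups, but the summed level was then lower in every shARNT library (44345 to 50445) than in any shControl library (51360 to 57200).

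**Figure D3:**
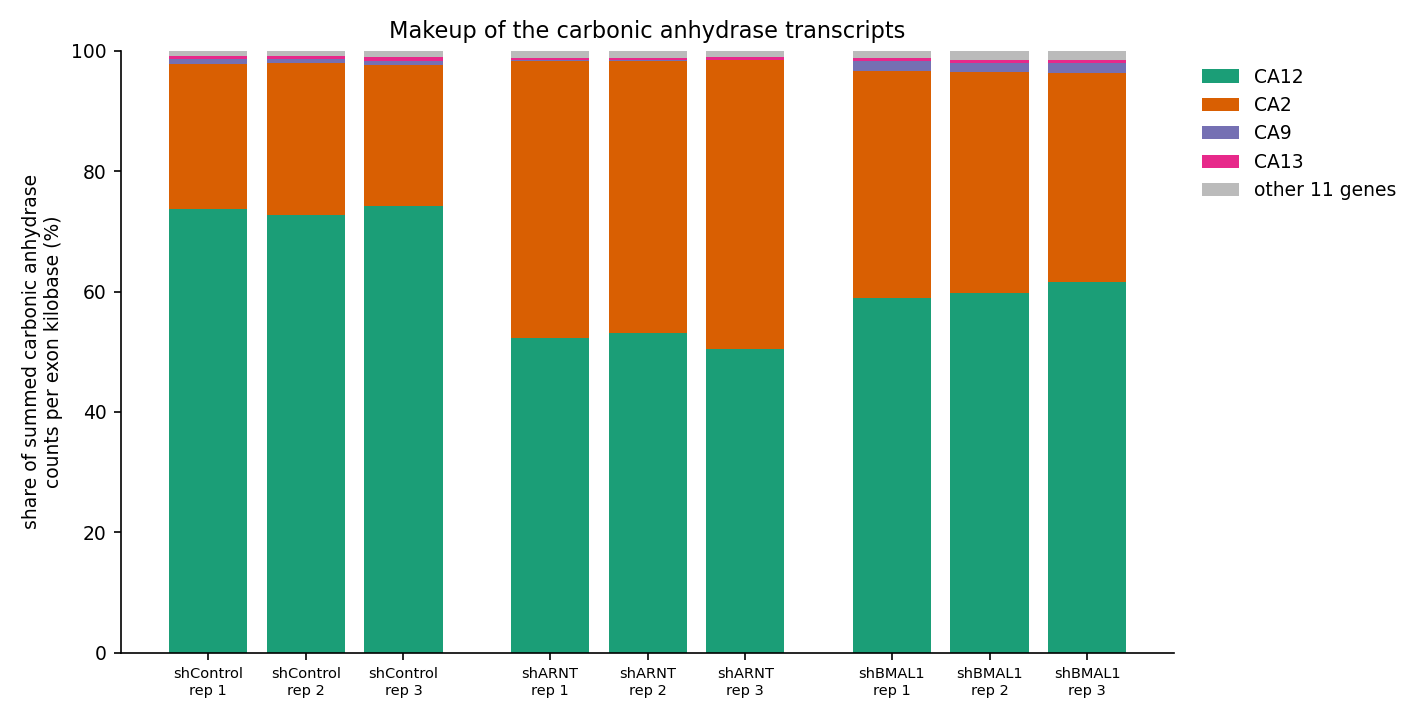
Share of the summed carbonic anhydrase counts per exon kilobase (vertical axis, percent) held by CA12, CA2, CA9, CA13 and the other 11 carbonic anhydrase genes in each library (1 bar per library, horizontal axis). CA12 holds 72.8% to 74.3% in shControl, 50.5% to 53.1% in shARNT and 59.0% to 61.5% in shBMAL1, with CA2 making up most of the rest.

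Of the other 11 carbonic anhydrases, CA11, a family member without catalytic activity, was the only one called. Its normalised counts were 50.9 ± 6.11 for shControl, 89.7 ± 14.0 for shARNT and 166 ± 22.1 for shBMAL1, with log2 fold changes of 0.82 ± 0.27 and 1.70 ± 0.23. CA11 was also higher in shBMAL1 than in shARNT, by 0.88 ± 0.21, so it was higher in both knockdowns as CA2 was, with the larger rise in shBMAL1. CA4 (79.5, 96.8 and 100 counts in the respective groups), the mitochondrial CA5B (143, 140 and 139) and CA14 (43.9, 40.6 and 27.7) were not called in either knockdown. CA1, CA3, CA5A, CA6, CA7, CA8 and CA10 had means under 5 counts in every group.

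For each gene, the 3 genes most like it over the 9 libraries were found by Pearson's r of log2(normalised count + 1) among 12936 genes with a mean of at least 50. These r values are a description, since the 9 libraries fall into 3 groups so that r reflects the group means as well as single libraries. Closest to CA9 were EGLN3 (r = 0.994), a prolyl hydroxylase that HIF induces, EDN1 (r = 0.994), which encodes endothelin, and ABI2 (r = 0.993). EDN1 had 703, 623 and 755 counts in shControl, 126, 145 and 131 in shARNT, and 1486, 1411 and 1391 in shBMAL1. The means of EGLN3 were 4092, 1937 and 6115 for shControl, shARNT and shBMAL1. Both shared with CA9 the order shARNT, shControl, shBMAL1, with smaller differences than CA9 in shARNT (log2 fold changes of -2.37 for EDN1 and -1.08 for EGLN3).

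**Figure D4:**
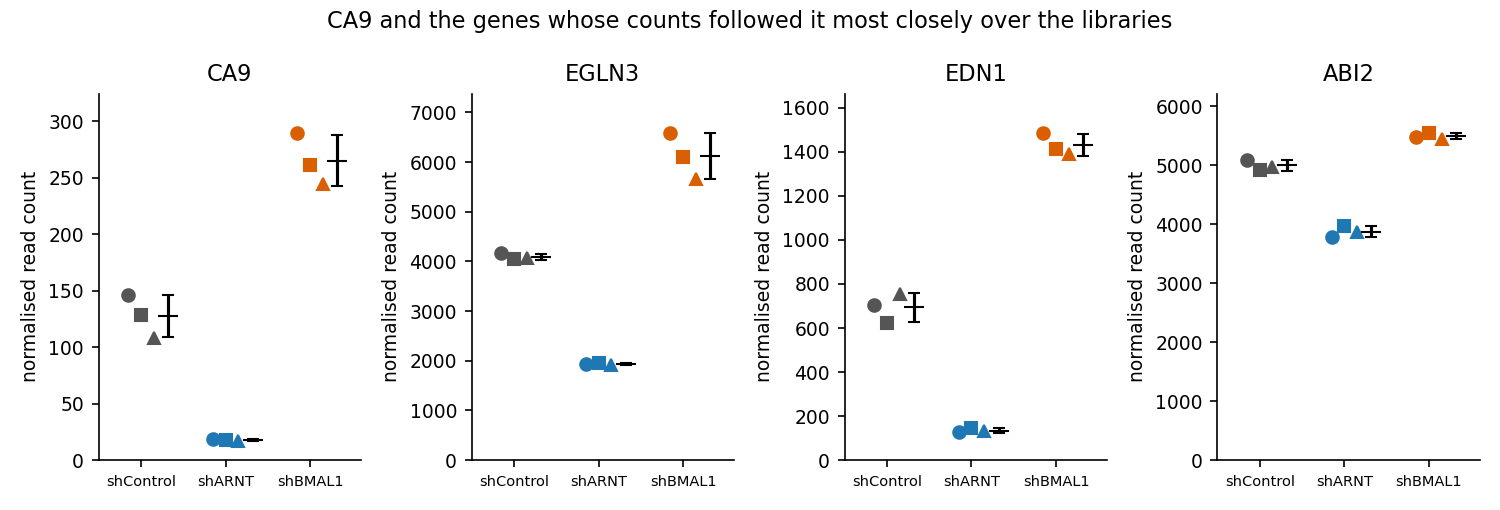
Normalised read counts (vertical axes, linear, from 0) of CA9 and of EGLN3, EDN1 and ABI2, the genes with the highest Pearson's r to it, by library in shControl, shARNT and shBMAL1. Symbols are replicates 1, 2 and 3 (circle, square, triangle), black bars are the mean ± SD (n = 3), and all 4 genes are lowest in shARNT and highest in shBMAL1.

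CA12 was followed most closely by MAPKAPK3 (r = 0.984), SLC7A1 (r = 0.982) and SLC16A1 (r = 0.981), the last of which encodes the lactate and proton cotransporter MCT1. MCT1 transcripts were at 4689 ± 272 counts for shControl, 3952 ± 136 for shARNT and 4339 ± 211 for shBMAL1. ZSWIM8 (r = 0.990), TSPAN15 (r = 0.983) and TAF6L (r = 0.982) were closest to CA2, and TSPAN15 differed the most of these, with 1372 counts for shARNT and 1163 for shBMAL1 against 587. MOCS3 (r = 0.997), SLC39A3 (r = 0.981) and DBNDD1 (r = 0.969) were closest to SLC4A2, and BZW1 (r = 0.988), FMR1 (r = 0.985) and KCTD9 (r = 0.984) to SLC4A7. The likeness was weakest for CA13, with LOC102724943 (r = 0.965), LRP10 (r = 0.946) and HOMEZ (r = 0.939). No 2 members were among each other's closest genes.

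The rest of the acid-base machinery was described with 7 lists of 86 genes written by hand from their known roles, the other 11 carbonic anhydrases among them. The lists, like the members, were written with these contrasts in view, so their counts are a description and nothing is read from them. Over all lists in shARNT, 8 of 56 genes tested were called lower (14.3%) and 19 higher (33.9%), beside 19.0% and 16.5% of all genes. In shBMAL1, 16 of 64 were lower (25.0%) and 9 higher (14.1%), beside 19.4% and 17.4%. In shBMAL1 against shARNT, 23 of 61 were lower (37.7%) and 6 higher (9.84%), beside 18.0% and 17.3%. The median log2 fold changes were 0.12, -0.10 and -0.21, where those of all genes tested were 0.0028, 0.015 and 0.0094.

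Bicarbonate transport beyond SLC4A2 and SLC4A7 was represented by 8 other SLC4 genes. SLC4A4, which encodes the sodium bicarbonate cotransporter NBCe1, rose in both knockdowns, to 3704 ± 71.8 counts with shARNT and 4206 ± 215 with shBMAL1 from 2692 ± 333, by 0.46 ± 0.077 and 0.64 ± 0.088. Unlike CA2, it was higher in shBMAL1 than in shARNT, by 0.18 ± 0.067, a call that was lost without shARNT replicate 2 or shARNT replicate 3. SLC4A7, which carries the same ions, had values of -0.14 and -0.42 in these comparisons. The anion exchanger gene SLC4A3 was lower in shBMAL1 by -0.33 ± 0.11, a call that was lost without shControl replicate 3 (-0.27). Of the 8 SLC26 anion exchangers, SLC26A11 rose in both knockdowns, by 1.26 ± 0.21 and 1.25 ± 0.21, SLC26A1 rose in shBMAL1, by 1.03 ± 0.16, and the sulfate transporter SLC26A2 fell in both, by 0.37 ± 0.072 and 0.75 ± 0.087. SLC26A6 was lower in shARNT, at -0.23 ± 0.073.

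Proton transport coupled to lactate or sodium was covered by 2 lists. The main lactate and proton exporter MCT4 (SLC16A3), a hypoxia-induced gene, was at 26690 ± 678 counts with the control hairpin, 22500 ± 854 with shARNT and 18207 ± 2490 with shBMAL1, and it fell by 0.24 ± 0.048 and 0.55 ± 0.084. Its order of groups was that of SLC4A7 and not that of CA9 or CA12. BSG, the chaperone of MCT1 and MCT4, was higher in shBMAL1 by 0.23 ± 0.074, a call that was lost without shControl replicate 1 (0.17). Among the 15 sodium-proton exchangers and their partners, SLC9A3R1, the scaffold NHERF1, fell in shBMAL1 from 1840 ± 183 to 853 ± 42.0 counts, a change of -1.11 ± 0.093, with -0.09 ± 0.079 in shARNT. The organelle exchanger gene SLC9A7 was lower in shARNT (-0.47 ± 0.11) and SLC9A8 was higher there (0.18 ± 0.063), the latter not called without shARNT replicate 1 (0.14). The SLC9A3R2 call in shBMAL1 (0.32 ± 0.14) was lost in 6 of 12 alternatives.

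The 28 proton pump genes are almost all subunits of the V-ATPase, which acidifies lysosomes and other organelles. In shARNT, 13 of 22 tested were called higher (59.1%) and 2 lower (9.09%), beside 16.5% and 19.0% of all genes, and the median log2 fold change was 0.20. In shBMAL1, 13 of 23 were not called, 8 were lower (34.8%) and 2 higher (8.70%), beside 19.4% and 17.4%, with a median of -0.10, and the number called lower was 5 without shControl replicate 1, while the number called higher was 1 without shControl replicate 1 or 3 and 4 without shBMAL1 replicate 3. Between the knockdowns, 13 of 22 were lower in shBMAL1 (59.1%) and 2 higher (9.09%), beside 18.0% and 17.3%, with a median of -0.33. ATP6V0D1 moved from 4713 ± 138 counts up to 6652 ± 119 with shARNT (0.50 ± 0.051) and down to 3626 ± 281 with shBMAL1 (-0.38 ± 0.073), and ATP6V0A1 rose in shARNT by 0.66 ± 0.062. ATP6V0D2, at 60.6, 132 and 18.9 counts, changed by 1.13 ± 0.24 and -1.68 ± 0.42. ATP6AP1 rose in both knockdowns, by 0.36 ± 0.054 and 0.42 ± 0.085, whereas ATP6V0A4, the subunit of acid-secreting renal cells, fell in both, by 1.80 ± 0.22 and 0.62 ± 0.20 (the latter not called without shControl replicate 1, at -0.48), and was lowest in shARNT as CA9 and CA12 were. ATP6V1C1 was higher in both, by 0.56 ± 0.074 and 0.20 ± 0.076 (the latter not called without shControl replicate 1 or 3, at 0.16 without replicate 3), and the shARNT call of ATP6V1C2 (-0.19 ± 0.085) was lost in 6 of 12 alternatives.

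Of the 10 proton sensors and channels, 1 of 5 tested was called lower (20.0%) and 1 higher in shARNT, beside 19.0% and 16.5% of all genes, and 2 of 7 lower (28.6%) and none higher in shBMAL1, beside 19.4% and 17.4%. GPR132 was lower in shBMAL1 (-0.54 ± 0.19, not called without shBMAL1 replicate 2, at -0.45), and the shARNT call of the acid-sensing channel ASIC1 (0.45 ± 0.21) was lost in 8 of 12 alternatives.

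**Figure D5:**
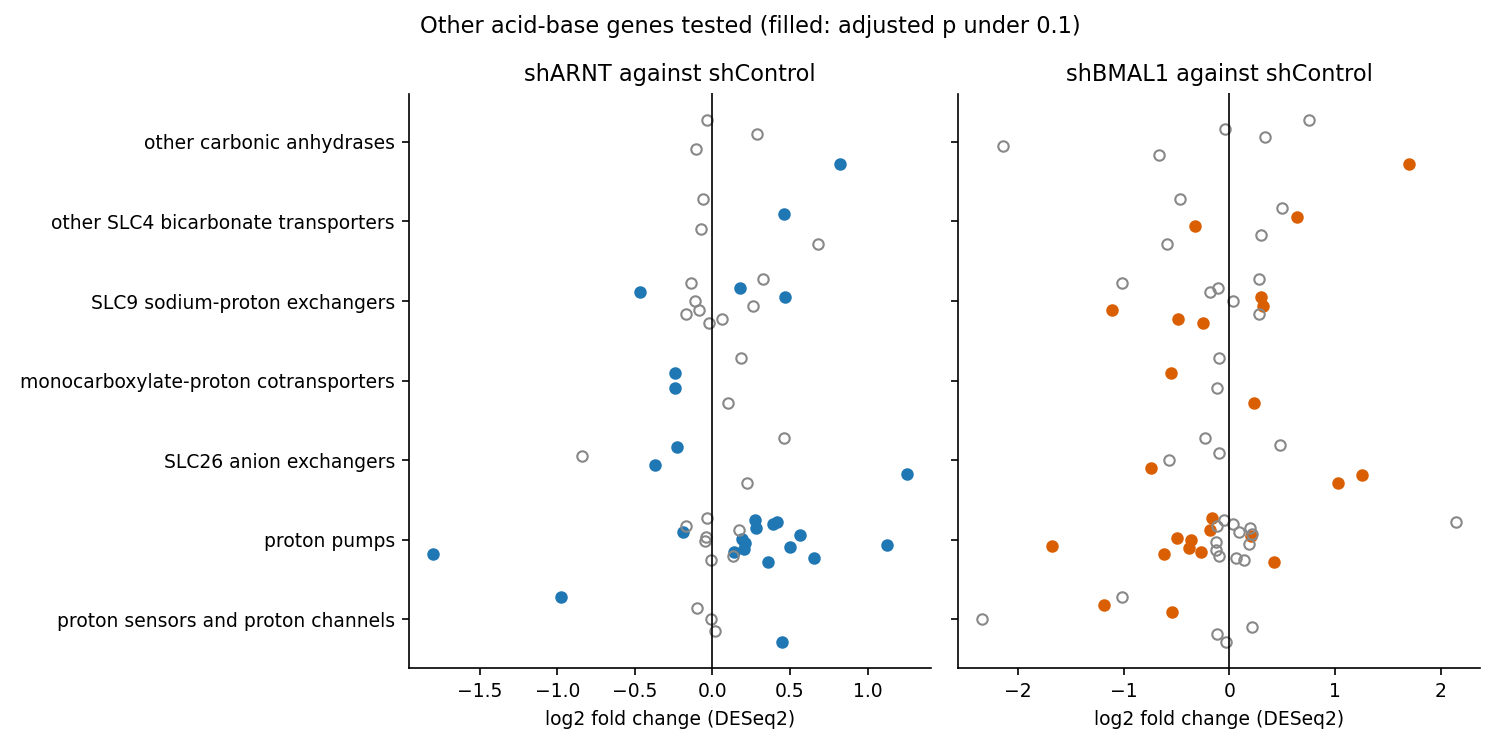
DESeq2 log2 fold change (horizontal axis, the ranges differ between panels) of the tested genes of the 7 acid-base lists (vertical axis), in shARNT (left) and shBMAL1 (right) against shControl, 1 point per gene. Filled points passed an adjusted p of 0.1 and open points did not, and of the filled proton pump points, 13 of 15 lie to the right of 0 in shARNT and 8 of 10 to the left in shBMAL1.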

How the data were processed

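Stranded mRNA libraries of 9 samples were sequenced on a BGI platform. The values deposited by the authors are estimated counts per gene. The study's methods name GRCh37, SeqMan NGen and ArrayStar, whereas the labels' processing notes name STAR and hg38. The annotation and strand setting are not given in the sources used here. The stand-in 0.009 was set to 0, 53 rows of repeated names were added up, values were rounded, and 28 rows with dates for names stayed unnamed. Groups were taken from the labels. Each comparison was fitted with DESeq2 version 1.42.0 in R version 4.3.3 on its 6 libraries (median-of-ratios size factors, Wald test, two-sided, Benjamini-Hochberg adjustment), with the tool the study used. Errors on log2 fold changes are standard errors, and normalised counts use size factors over 9 libraries. Same-group libraries differed by 7.18 to 16.4 chi-square per degree of freedom and libraries of different groups by 44.5 to 93.9, so no library was a copy. Totals were at least 33793045 counts per library, and CA9 in shARNT rested on about 18 counts per library, so counting error weighs more there than for the other members.

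Exon and coding lengths, positions and overlaps came from GENCODE v44 lifted to GRCh37. The members and the gene lists were chosen with earlier results of these data known. The text names the 6 members, ARNT, BMAL1 and the HIF subunits, up to 2 called genes per direction and list with a mean of at least 50 counts, other carbonic anhydrases with at least 10, and the 3 genes most like each member. The 7 carbonic anhydrases below that mean are named to account for the list, and some genes that the rule names are not reported here. Alternatives were edgeR version 4.0.16, TMM size factors, a minimum of 10 counts in 3 libraries, a fit of 9 libraries, a replicate block, a threshold of 0.05, leaving out each library and, added after seeing the data, coding length. The fits were tested on simulated data.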

Additional observations from a re-analysis of the deposited data

How the results depend on the processing

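Of 216 alternative values for the 6 genes, 191 kept their direction and their side of the threshold. CA13 in shARNT gained a call in edgeR (-0.27). SLC4A7 in shARNT lost its call in the fit of 9 libraries (-0.14) and at 0.05 (-0.14), and CA13 in shBMAL1 against shARNT lost it at 0.05 (0.34). Leaving out 1 library gave -0.16 to -0.10 for SLC4A7 in shARNT, -0.29 to -0.15 for CA12 and -0.022 to 0.15 for CA13 in shBMAL1 (it turned to -0.012 without shControl replicate 2 and to -0.022 without shBMAL1 replicate 1), and, between the knockdowns, 0.17 to 0.31 for CA12, 0.25 to 0.42 for CA13 and -0.20 to -0.12 for SLC4A2. The cause was not tested. Counts over the 7 lists stayed within 1.5 times under all alternatives. Proton pump genes called higher in shBMAL1 were 2, but 1 without shControl replicate 1 or 3 and 4 without shBMAL1 replicate 3, and those called lower in shARNT were 2 or 1.

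Whether same-numbered libraries were handled together is not given in the sources used here. Their deviations from the group means correlated at -0.15 to 0.11, and libraries did not all correlate best with their own number. With 3 libraries per group, these correlations cannot decide whether the libraries were paired. With a replicate block, calls over all genes went from 5374 to 4150 in shARNT, 7005 to 5742 in shBMAL1 and 6409 to 5388 between them, and SLC4A7 in shARNT (-0.14) and CA13 between the knockdowns (0.33) were no longer called. A length from RefSeq proteins was not run.

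Depth limits CA9 in shARNT, with about 18 counts per library. A single shRNA per gene and 1 cell line do not separate a target's effect from that of the hairpin, and mRNA levels give neither enzyme amounts nor pH.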
